A study of Mus musculus with 6 samples.

Results

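The miR-200 family of microRNAs was described here in small RNA libraries of mouse oviduct and of tumors carrying a Dicer1 mutation. Its members were chosen by name, as both strands of miR-200a, miR-200b, miR-200c, miR-141 and miR-429, which gave 10 of the 1915 mouse names in the count table. A count was found for 9 of the 10, and mmu-miR-429-5p had none in any library. The 3 tumors were labelled as primary ADT tumors of the oviduct with the genotype Dicer1ko/D1693N, in which a knocked-out allele stands beside the D1693N allele. The 3 oviducts were labelled Dicer1+/D1693N, so all 6 samples carried D1693N and the oviducts kept a normal allele. Neither group was treated, and the labels give no driver of the knockout, no age and do not say whether each sample is a different animal. The depth ranged from 154002 to 272167 counts on mouse names in the tumors and from 297039 to 580390 in the oviducts. Tissue state changed together with genotype and with a mark in the columns' names (s1 for each tumor, s0 for each oviduct), and these cannot be told apart.

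MicroRNAs of this family are made by epithelial cells, where they repress the transcription factors Zeb1 and Zeb2 and thereby help to maintain E-cadherin and the epithelial state. Each is cut from a hairpin precursor, and Dicer releases a strand from each arm, called 5p and 3p. The RNase IIIb domain of Dicer, which the D1693N allele changes, makes the cut that frees the 5p strand, while its RNase IIIa domain makes the one that frees the 3p strand. In this family the strand that is loaded and represses targets is the 3p strand.

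The 5 hairpins lie in a pair of genomic clusters. On chromosome 4 (GRCm38, minus strand) Mir200b (156055681 to 156055750), Mir200a (156054896 to 156054985) and Mir429 (156053905 to 156053987) span 1846 bases within an intron of Ttll10, and Mir429 also overlaps an exon of the non-coding gene Gm13648. On chromosome 6, also on the minus strand, Mir200c (124718322 to 124718390) and Mir141 (124717914 to 124717985) span 477 bases within an intron of the non-coding gene Gm15884, and Mir141 also overlaps an exon of Gm29008. The genome build behind the deposited counts is not given in the sources used here, and these positions serve only as locations.

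The mature sequences are shown because the seed, bases 2 to 8 from the 5′ end (in capitals), sets which targets a microRNA can pair with, and because it divides the 3p strands across both clusters. The sequences are those of RefSeq (GRCm38.p6), which held all 10 names. The first 3 lines share the seed AAUACUG and the last 2 share AACACUG, and no other mouse mature sequence in that table has either.
mmu-miR-200b-3p: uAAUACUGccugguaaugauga
mmu-miR-429-3p: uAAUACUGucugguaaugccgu
mmu-miR-200c-3p: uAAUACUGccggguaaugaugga
mmu-miR-200a-3p: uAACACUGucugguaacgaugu
mmu-miR-141-3p: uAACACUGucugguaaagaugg
The seeds differ by U4C, counted from the 5′ end with the base of miR-200b-3p first. Outside the seed the closest pairs differ at 2 of 22 bases, by U11G and A22G between miR-200b-3p and miR-200c-3p (which is 1 base longer) and by C17A and U22G between miR-200a-3p and miR-141-3p. How the authors assigned reads that match more than 1 name is not given in the sources used here. Reads could have been split between these close pairs or counted under both names, and the pairs join the clusters. Elsewhere in the counts, miR-199a-3p and miR-199b-3p had the same totals, 21849 in the tumors and 5212 in the oviducts. Which way reads of the family were assigned was not tested.

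The hairpin of miR-141 is shown because miR-141-5p was the 5p strand that could be tested. Its capitals mark the 5p strand (bases 6 to 27) and, after a loop of 20 bases, the 3p strand (bases 48 to 69).
Mir141: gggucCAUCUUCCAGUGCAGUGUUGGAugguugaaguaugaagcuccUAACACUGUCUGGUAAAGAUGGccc

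The first question was whether the family's strands differed in level between tumors and oviducts. All 6 testable strands had lower fitted levels in the tumors, but by modest factors, and miR-200c-3p and miR-141-5p were the 2 that passed the test, with 4 not called and 0 higher (edgeR quasi-likelihood test, Benjamini-Hochberg adjusted p under 0.05). Of these 2, miR-141-5p entered the test only through its oviduct counts, so neither its call nor its direction adds support. At an unadjusted p under 0.05 there were 3 lower and 0 higher. The shares of all names at that threshold were not computed, so this count is not read as a result about the family. Those shares cannot lie below the adjusted ones of 25.6% lower and 26.9% higher. DESeq2 called 1 member lower and 0 higher, beside 62 lower and 66 higher of all 227 names. By the adjusted edgeR test, 25.6% of all 227 tested names were called lower and 26.9% higher. The low-count filter passed the 5 3p strands and miR-141-5p, and the other 4 5p strands were too rare to test. Levels below are CPM (counts scaled to a common library total) adjusted with trimmed mean of M-values (TMM) factors. In bulk tissue, fewer epithelial cells and less of a microRNA per cell cannot be told apart.

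In the cluster on chromosome 4, mmu-miR-200b-3p had 702, 1129 and 1659 CPM in tumors 1, 2 and 3, against 1531, 2961 and 1712 CPM in oviducts 1, 2 and 3. Tumor 3 lay above oviduct 1, so the groups overlapped. Its log2 fold change (tumor over oviduct) was -0.83 (SE 0.41, 95% interval -1.74 to 0.08, edgeR adjusted p = 0.110), and it was not called. Its neighbour mmu-miR-200a-3p had 587, 530 and 644 CPM in the tumors, against 1050, 887 and 913 CPM in the oviducts. All 3 tumors lay below all 3 oviducts, and with means of 587 ± 56.7 CPM in the tumors and 950.0 ± 87.2 CPM in the oviducts (SD, n = 3 each) the spread within a group was small. The fold change still missed the threshold (log2 -0.69, SE 0.29, edgeR adjusted p = 0.0654). The groups failed to overlap on the lower side for 30.4% of all tested names. The third strand of this cluster, mmu-miR-429-3p, had 853, 1915 and 1480 CPM in the tumors, against 1447, 3072 and 1527 CPM in the oviducts. Its groups overlapped in 2 of the 3 tumors, and its log2 fold change was -0.51 (SE 0.42, 95% interval -1.45 to 0.43, edgeR adjusted p = 0.327).

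In the cluster on chromosome 6, mmu-miR-200c-3p had 176, 235 and 359 CPM in the tumors, against 357, 580 and 634 CPM in the oviducts. It was the scarcest 3p strand of the family in every library, and tumor 3 lay level with oviduct 1. It fell 2.04-fold (log2 -1.03, SE 0.39, edgeR adjusted p = 0.0483), just inside the threshold. The call was lost without tumor 2, oviduct 2 or oviduct 3 (edgeR adjusted p = 0.135, 0.117 and 0.102). The partner strand mmu-miR-141-3p, the most abundant of the family in every library, had 1525, 3177 and 2412 CPM in the tumors, against 6875, 4419 and 2126 CPM in the oviducts. Oviduct 3 lay below tumors 2 and 3, and the oviducts spread more widely than the tumors. Its log2 fold change was -0.92 (SE 0.46, 95% interval -1.93 to 0.10, edgeR adjusted p = 0.114).

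**Figure D1:**
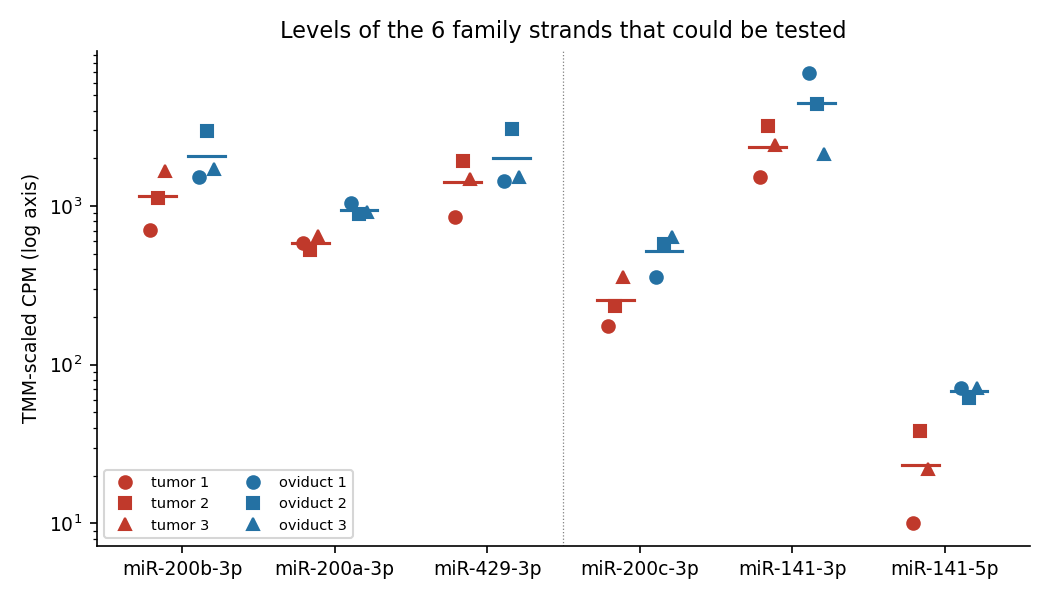
TMM-scaled CPM (log axis) of the 6 testable strands in each library, tumors in red and oviducts in blue, with a bar at the group mean. The strands of the chromosome 4 cluster stand left of the dotted line. The groups are apart for miR-200a-3p and miR-141-5p and overlap for the other 4.

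The 5p strands were rare throughout. The 5p strand of miR-141 (mmu-miR-141-5p) had 2, 9 and 5 counts in the tumors, against 23, 34 and 18 counts in the oviducts, or 23.5 ± 14.3 CPM and 68.0 ± 5.40 CPM (SD, n = 3 each). All tumors lay below all oviducts. It fell 2.82-fold (log2 -1.49, SE 0.52, edgeR adjusted p = 0.0339), beside 48.4% of the 95 tested 5p names called lower. It passed the low-count filter through the oviducts, where it was higher. The call was lost without tumor 1, tumor 3 or any 1 of the oviducts (edgeR adjusted p between 0.0571 and 0.0692). The others were not tested. Counts of mmu-miR-200a-5p were 6, 5 and 5 in the tumors, against 3, 21 and 14 in the oviducts. Those of mmu-miR-200b-5p were 2, 2 and 4 in the tumors, against 6, 8 and 7 in the oviducts. In CPM both overlapped between the groups. For mmu-miR-200c-5p 1 count was found in the tumors and 2 in the oviducts, and for miR-429-5p 0 in both, which is under the floor of 3 counts, or 11.02 to 19.5 CPM per tumor library and 5.17 to 10.1 CPM per oviduct library before TMM scaling.

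How far the family lay below the oviducts depended on the scaling. With library totals alone 0 members were called lower, beside 11.9% of all names, and the log2 fold changes of the 5 3p strands lay between -0.53 (miR-200c-3p) and -0.03 (miR-429-3p). With TMM factors computed from 3p names alone all 6 were called lower, beside 40.5% of all names. With TMM and no low-count filter 3 were called lower, beside 8.27% of 919 names. All tested names together had a median log2 fold change of 0.20 with TMM, of 0.65 with library totals and -0.73 with TMM on 3p names. Relative to that median, the middle one of the 5 3p strands lay at -1.03, -0.97 and -1.04. Relative to the median of the tested 3p names (0.89 with TMM) it lay at -1.72, -1.63 and -1.82. A change of factors shifts nearly all names alike, so these distances could hardly differ between scalings. With no low-count filter, which changes the names compared, they were -2.02 to all names and -2.40 to 3p names. In these scalings and with relative log expression (RLE) and upper-quartile factors, all 5 3p strands were below both medians. With TMM, 10% of the 110 tested 3p names were called lower and 41.8% higher, and between 12 and 20 of the 110 had a lower log2 fold change than each 3p strand of the family.

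**Figure D2:**
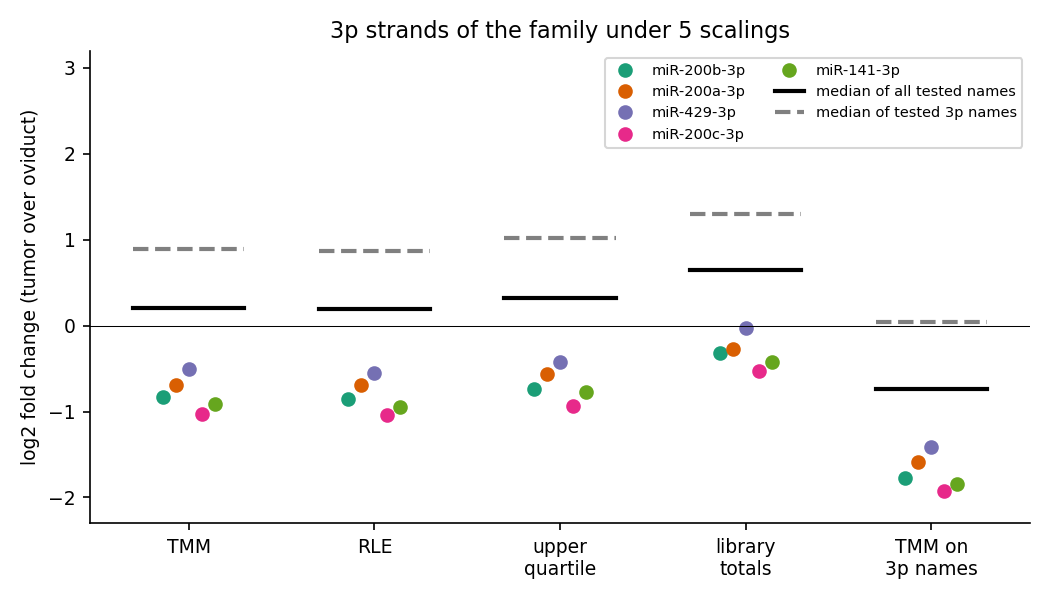
Log2 fold change (tumor over oviduct) of the 5 3p strands under 5 scalings, with the median of all tested names (solid line) and of tested 3p names (dashed line). The strands move up and down with the scaling and stay below both medians in each of the 5.

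As a share of all mouse microRNA counts, the 10 names together took 0.285%, 0.935% and 0.981% in the tumors, against 0.974%, 1.14% and 0.605% in the oviducts. Tumor 1 was the lowest and the other tumors lay within the range of the oviducts. The means were 0.734% ± 0.389 in the tumors and 0.906% ± 0.274 in the oviducts (SD, n = 3 each), a ratio of 0.809. The log2 ratio was -0.31, and without tumor 1 it was 0.08, so the direction of this unscaled share rested on that library. With TMM scaling the family's sum was 5855 ± 1715 CPM in the tumors and 10155 ± 2693 CPM in the oviducts, a ratio of 0.577. The groups then did not overlap, but tumor 2 (7059 CPM) lay just below oviduct 3 (7070 CPM). Without tumor 1 the strands called lower were again 2, miR-200c-3p (edgeR adjusted p = 0.0419) and miR-200a-3p (edgeR adjusted p = 0.0392), beside 73 of all 262 tested names. In tumor 1 the muscle and fibroblast microRNA miR-143-3p took 60.9% of the counts, against between 13.9% and 27.7% in the other tumors and between 44.1% and 47.2% in the oviducts. With miR-143-3p left out of the total, the family took 0.730%, 1.29% and 1.14% in the tumors, against 1.74%, 2.11% and 1.15% in the oviducts. The groups then overlapped only between tumor 2 and oviduct 3, and the ratio of means was 0.633.

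The next comparison set the arms against each other within each hairpin, which needs no scaling. In every family hairpin the 3p strand stayed the main product in both groups. The log2 ratio of 5p to 3p counts (0.5 added to each) was called changed in 0 of the 5 hairpins by limma, at an unadjusted p under 0.05 also in 0, and by an edgeR interaction of arm and group in 0. Of the 5, miR-200c and miR-429 had too few 5p counts for their ratio to be read. Over all 142 tested hairpins, the ratio was called lower by limma in 47.2% and higher in 3.52%, with a median change of -1.53. The edgeR interaction called 61 of the 142 lower and 2 higher, and the share at the unadjusted threshold was not computed. Among the 67 hairpins whose 3p strand was the larger in the oviducts, 23.9% were called lower and 7.46% higher. Among 45 hairpins with a 5p share under 5% in the oviducts, to which all 5 family hairpins belong, 4.44% were called lower and 8.89% higher, and the median change of the other 40 was -0.08. Of those called higher, miR-375, miR-92b and miR-328 had 0 or 1 5p counts in each group. Their ratios followed the added 0.5 and the level of the 3p strand. The other, miR-320, had 12 5p counts in the tumors and 0 in the oviducts. With so few 5p counts a hairpin could hardly be called lower.

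In miR-200b the 5p share was 1.41%, 0.752% and 1.04% in the tumors, against 1.20%, 0.489% and 1.58% in the oviducts. The groups overlapped fully, with 8 5p beside 783 3p counts in the tumors and 21 beside 2557 in the oviducts. The log2 ratio changed by 0.25 (95% interval -1.18 to 1.69, limma adjusted p = 0.790), an interval that lies above the median of all hairpins. In miR-200a, the family hairpin with the highest 5p share, it was 4.88%, 3.88% and 3.29% in the tumors, against 0.880%, 4.13% and 5.69% in the oviducts. Oviduct 1 was the lowest and oviduct 3 the highest. The change was 0.56 (95% interval -1.07 to 2.19, limma adjusted p = 0.562), or -0.22 without oviduct 1. In miR-141 the 5p share was 0.654%, 1.20% and 0.899% in the tumors, against 1.03%, 1.38% and 3.23% in the oviducts. Tumor 2 lay within the range of the oviducts and the other tumors below it. The change was -0.77 (95% interval -2.17 to 0.63, limma adjusted p = 0.350), an interval that holds both 0 and the median of all hairpins.

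The remaining hairpins had too few 5p counts for their ratio to be read. In miR-200c 1 5p count stood beside 172 3p counts in the tumors and 2 beside 595 in the oviducts, an odds ratio of 1.73 with an exact 95% interval of 0.0291 to 33.4 for counting error alone. In miR-429 0 5p counts stood beside 956 3p counts in the tumors and 0 beside 2544 in the oviducts, which allows a 5p share of up to 0.314% in the tumors and 0.118% in the oviducts. The ratio changes of miR-200c (1.20) and miR-429 (1.19) therefore followed the added 0.5 and the depth.

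**Figure D3:**
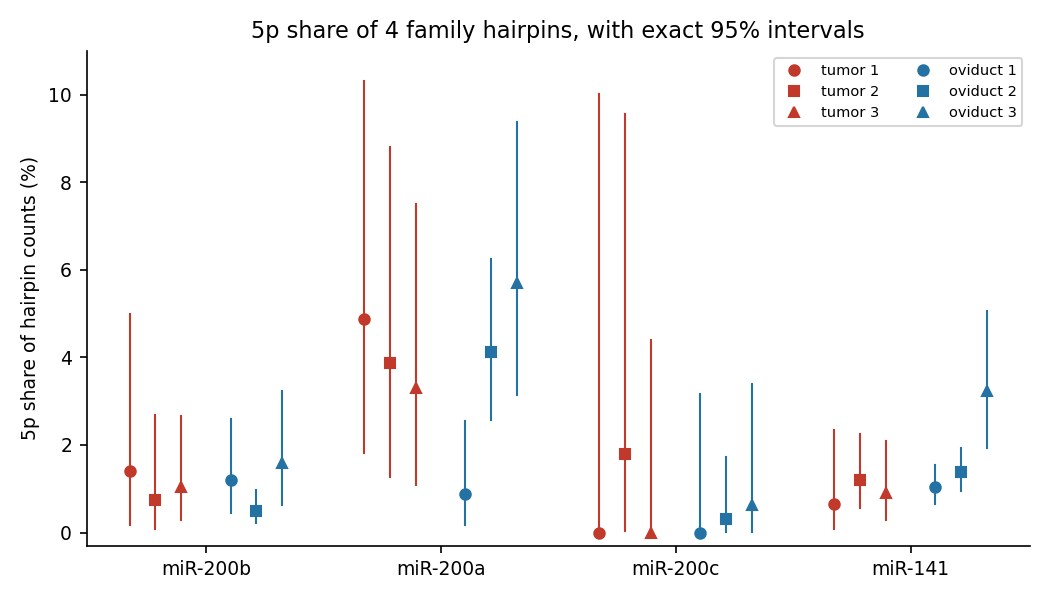
Share of 5p counts (percent of hairpin counts) in each library for the 4 hairpins with any 5p count, tumors in red and oviducts in blue, with exact 95% intervals for counting error. The intervals of the groups overlap in every hairpin, and the 5p share stays below 6% in all libraries.

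Summed over the 5 hairpins, 5p strands took 1.29%, 1.03% and 0.927% of the family's counts in the tumors, against 0.875%, 0.967% and 2.23% in the oviducts. Oviduct 3 was the highest and the other 5 libraries lay close together. The means were 1.08% ± 0.187 in the tumors and 1.36% ± 0.756 in the oviducts (SD, n = 3 each). In the same libraries the median 5p share of the 137 other tested hairpins was 38.3% ± 3.17 in the tumors and 75.4% ± 1.93 in the oviducts. Among them, the 40 with a 5p share under 5% in the oviducts are most like the family. Their median was 0.923% ± 0.250 in the tumors and 0.821% ± 0.217 in the oviducts. The medians of other hairpins had 0.5 added to each arm, while the family's shares had nothing added. Some of the 40, such as miR-103 and miR-23b, had 0 5p counts in both groups. Their shares then followed the added 0.5 and the depth. The 40 were also chosen by their oviduct share, so a low median there was set in advance. Whether a steady low 5p share was particular to the family was not tested.

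**Figure D4:**
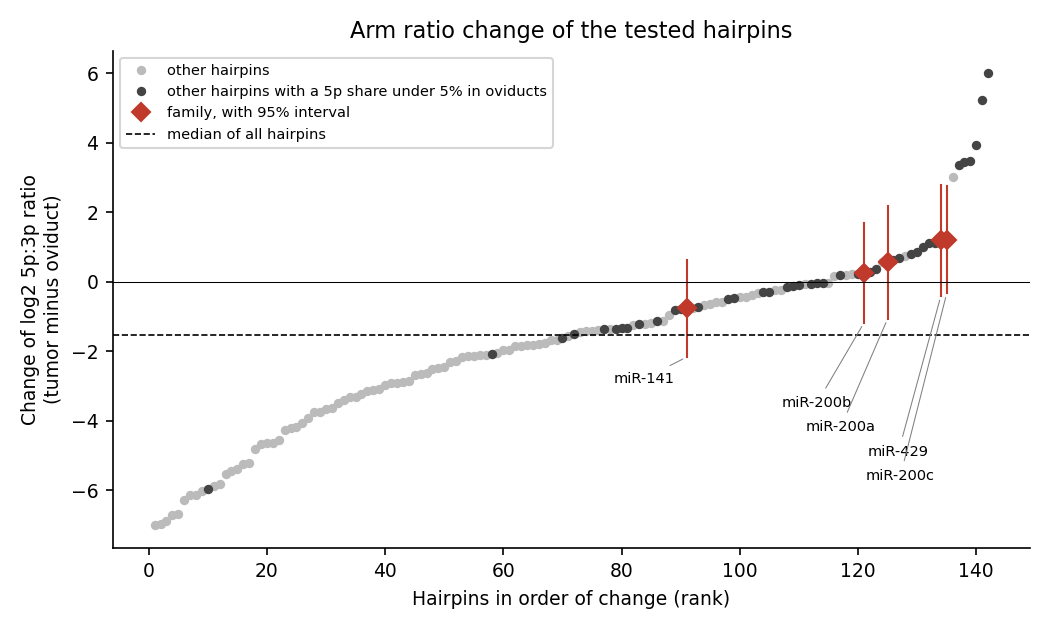
Change of the log2 5p:3p ratio (tumor minus oviduct) of the 142 tested hairpins in order of size, with the family as red diamonds with 95% intervals and other hairpins with a 5p share under 5% in the oviducts in dark grey. The family lies right of the middle, between ranks held by other hairpins with scarce 5p strands, and the values of miR-200c and miR-429 rest on 3 and 0 5p counts.

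The clusters were compared with each other inside each library. The counts of miR-200b, miR-200a and miR-429 were 1.28, 1.04 and 1.37 times those of miR-200c and miR-141 in the tumors, against 0.555, 1.38 and 1.49 times in the oviducts. Oviduct 1 was the only library with more counts from the chromosome 6 cluster. The mean log2 ratio was 0.29 ± 0.20 in the tumors and 0.06 ± 0.79 in the oviducts (SD, n = 3 each), a difference of 0.22 (two-sided exact permutation p = 1, adjusted over 2 ratios p = 1, smallest possible p = 0.1). Without oviduct 1 the difference was -0.23, so its direction rested on that library. Grouped by seed, hairpins with AAUACUG had 0.809, 0.874 and 1.13 times the counts of hairpins with AACACUG in the tumors, against 0.419, 1.23 and 1.23 times in the oviducts. The difference of mean log2 ratios was 0.11 (two-sided exact permutation p = 1, adjusted p = 1), and -0.40 without oviduct 1 and -0.03 without tumor 3. With 3 libraries a group this test cannot pass 0.05, so the values are given as a description of these libraries.

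The makeup of the family varied as much within a group as between the groups. Counts of different microRNAs also reflect how well each sequence is ligated and amplified, so shares are compared between libraries, not as numbers of molecules. The 3p strand of miR-141 took 40.2% ± 4.36 of the family's counts in the tumors and 42.4% ± 16.01 in the oviducts (SD, n = 3 each), with 60.5% in oviduct 1 and 30.1% in oviduct 3 as the extremes. The 3p strand of miR-429 took 23.8% ± 2.89 and miR-200b-3p 19.7% ± 4.77 in the tumors, against 19.96% ± 6.55 and 20.8% ± 6.32 in the oviducts. Which of these was the more abundant changed from library to library, miR-429-3p being above miR-200b-3p in tumors 1 and 2 and oviduct 2. The 3p strand of miR-200a took 10.8% ± 3.89 in the tumors and 9.84% ± 2.82 in the oviducts, and miR-200c-3p 4.42% ± 1.05 in the tumors and 5.64% ± 3.00 in the oviducts.

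**Figure D5:**
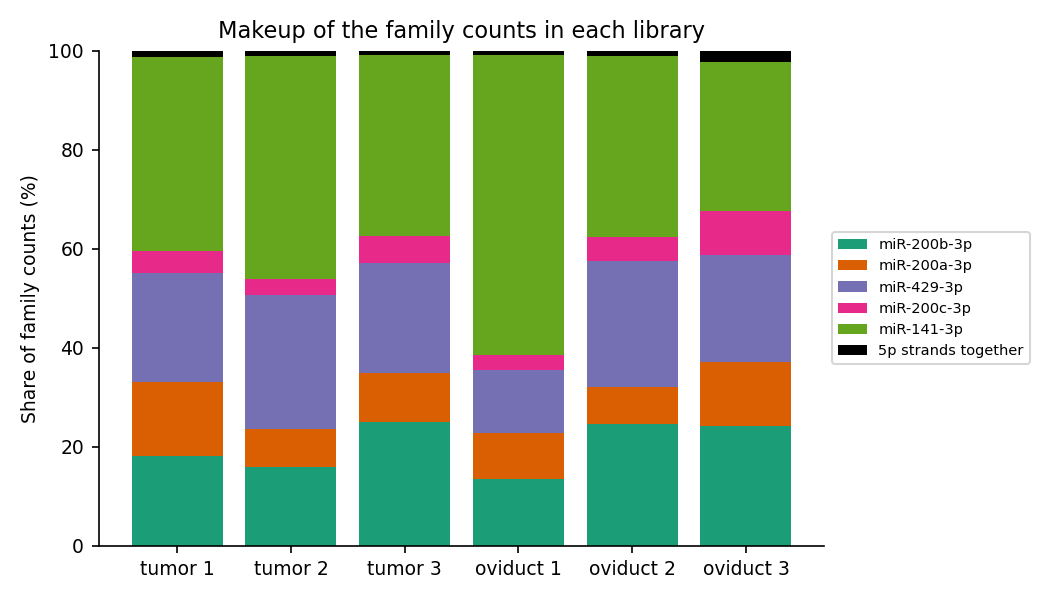
Share (percent) of the family's counts taken by each 3p strand and by all 5p strands together, in the 3 tumors and the 3 oviducts. Oviduct 1 stands apart with 60.5% miR-141-3p, and 5p strands are a thin band in every library.

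The ratio between strands varied from library to library, within a cluster as between clusters. The ratio of miR-141-3p to miR-200c-3p counts was 8.69, 13.5 and 6.72 in the tumors, against 19.3, 7.62 and 3.35 in the oviducts, a 5.74-fold range over the 6 libraries. That of miR-200b-3p to miR-200a-3p was 1.20, 2.13 and 2.58 in the tumors, against 1.46, 3.34 and 1.88 in the oviducts. Both ratios overlapped between the groups. The narrowest range of the 6 pairs examined was that of miR-200b-3p over miR-200c-3p, a pair from different clusters with the same seed, at 4.00, 4.80 and 4.62 in the tumors and 4.29, 5.11 and 2.70 in the oviducts, a 1.89-fold range, and miR-429-3p over miR-200b-3p, a pair from the same cluster, was as steady with a 1.90-fold range. The sequences of miR-200b-3p and miR-200c-3p differ at 2 of 22 bases, and how reads were assigned between them was not tested.

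Other microRNAs of epithelium and of the other cell types of the oviduct moved in several directions beside the family. In the epithelial list outside the family (the strands of miR-182, miR-183, miR-96, miR-203, miR-205 and miR-375) 5 of 12 names could be tested, of which 1 rose, 1 fell and 3 were not called, where 26.9% of all tested names were called higher and 25.6% lower. The summed level of that list ranged from 3571 to 4155 CPM in the tumors and from 3610 to 4714 CPM in the oviducts, with miR-96-3p and miR-375-5p at 0. Its most abundant strand, miR-182-5p, had 2838, 3036 and 3174 CPM in the tumors, against 2580, 1749 and 2279 CPM in the oviducts (log2 0.45, SE 0.31, edgeR adjusted p = 0.242). All 3 tumors lay above the oviducts, but it was not called. The strand that fell, miR-375-3p, had 130.4, 8.55 and 35.03 CPM in the tumors, against 1729.6, 1499.7 and 1236 CPM in the oviducts (log2 -4.71, SE 0.72, edgeR adjusted p = 0.000708). The strand that rose, miR-203-3p, had 231, 261 and 635 CPM in the tumors, against 139.7, 122 and 169 CPM in the oviducts (log2 1.39, SE 0.48, edgeR adjusted p = 0.0324). The groups of both were apart, in opposite directions. Of all tested names 30.4% were apart on the lower side, and the share on the higher side was not computed. With 36 counts in the tumors and 1696 in the oviducts, miR-375-3p passed the low-count filter through the oviducts, where it was higher. The summed level of the 8 names of multiciliated epithelium (the miR-34 and miR-449 families) ranged from 420.3 to 1204 CPM in the tumors and from 14806 to 21529 CPM in the oviducts. There 3 of 5 tested names fell, and miR-449a-3p and miR-449b were at 0. Of those that fell, miR-34b-5p (7 counts in the tumors, 382 in the oviducts) passed the low-count filter through the oviducts. Most of the oviduct sum was miR-34c-5p, with a mean of 15537 CPM. The log2 fold changes of miR-34c-5p and miR-34b-5p were -5.83 and -5.01. Their 3p strands fell less, by -0.96 (edgeR adjusted p = 0.0705, not called) and -1.53 (edgeR adjusted p = 0.00597). The part of any cell type in the family's levels was not tested.

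In the lists of other cell types, the endothelial sum ranged from 15136 to 20113 CPM in the tumors and from 7117 to 9508 CPM in the oviducts, with both of its strands called higher. The leukocyte sum ranged from 1424 to 7286 CPM in the tumors and from 1421 to 2394 CPM in the oviducts, with 0 of 6 called by edgeR. The red cell sum ranged from 162 to 1189 CPM in the tumors and from 151 to 186 CPM in the oviducts, where miR-451a rose as the 1 name tested. The smooth muscle and fibroblast sum ranged from 138275 to 860524 CPM in the tumors and from 493486 to 559985 CPM in the oviducts, with 2 of 8 strands called higher and 4 lower. At least miR-214-5p of those 4, with 14 counts in the tumors and 76 in the oviducts, passed the low-count filter through the oviducts. The calls in these lists stand beside the same 26.9% higher and 25.6% lower over all tested names.

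The arm ratio of these lists also differed from hairpin to hairpin. Among epithelial hairpins outside the family, miR-205 was called lower, with 37 5p beside 5 3p counts in the tumors and 120 beside 0 in the oviducts. The hairpins of miR-182 (2001 beside 1 in the tumors, 2372 beside 0 in the oviducts), miR-183 and miR-203 were not called, and miR-375 was called higher on 0 5p counts in both groups. The ratio was called lower in 3 of 3 multiciliated hairpins, in 3 of 4 smooth muscle and fibroblast hairpins, in 1 of 4 leukocyte hairpins and in 0 of 1 endothelial hairpin, beside 47.2% of all 142 hairpins. Of the multiciliated ones, miR-449a had 0 3p counts in both groups (33 5p counts in the tumors, 261 in the oviducts), so its ratio followed the level of its 5p strand and the added 0.5. As in miR-182, several of these had 3 or fewer counts on 1 arm, and their ratios then depend on the added 0.5.

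The microRNAs whose pattern over the 6 libraries was most like that of the family's summed 3p counts were ranked by the root mean square difference of centred log2 CPM among 221 names. The nearest were miR-30e-5p (0.19), miR-3963 (0.24), miR-24-2-5p (0.25), let-7g-5p (0.31) and miR-425-5p (0.31), where the median name lay at 0.88. The nearest, miR-30e-5p, had 948, 1642 and 1585 CPM in the tumors, against 3844, 3468 and 1996 CPM in the oviducts, and like the family it was lowest in tumor 1 and, among the oviducts, in oviduct 3. This order is a description of 6 libraries that share their scaling.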

How the data were processed

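Small RNA libraries of 3 tumors and 3 oviducts were analysed, where the series text speaks of 4 and 5. Extraction (miRNeasy) and library preparation (TruSeq small RNA, Illumina) are per the labels' protocols. The submitters' processing notes list cutadapt, an adapter trimmer. The deposited values are raw counts per mature microRNA name, and per the file headers the reads had been trimmed and aligned. The sources used here name no aligner, counter, microRNA reference or build. Names of other species (67 names, 10 counts) were left out.

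Levels were tested with edgeR 4.0.16 (R 4.3.3; filterByExpr, minimum count 10; TMM; robust quasi-likelihood) over 227 names, which held at least 99.3% of the counts of each library. TMM factors were 0.733, 1.32 and 1.48 in the tumors and 0.857, 0.948 and 0.855 in the oviducts, and the common dispersion was 0.170. Arm ratios were tested with limma 3.58.1 (robust) over 142 hairpins that averaged 20 or more counts, with numbered copies summed. Adjusted p-values are Benjamini-Hochberg values over all names or hairpins. Ratios between clusters and seeds used two-sided exact permutation over samples. Single shares carry exact Clopper-Pearson 95% intervals, which with the floors cover counting error only, since PCR copies were not marked by molecular identifiers. Replicates are labelled samples, so p-values measure the spread between samples, which may be technical. Libraries of 1 group differed by a chi-square of at least 24.4 per degree of freedom, so none was a repeat deposit.

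Members and lists were chosen with earlier results of these data known. All members are named, with up to 4 of the most abundant tested names of a list where a result called for them, and the 5 names most like the family. The hairpins of other lists were named after their values were seen. Sequences come from RefSeq and overlaps from GENCODE M21, both on GRCm38. Alternatives were other scalings, filters, pseudocounts and minimums, DESeq2 1.42.0, an edgeR interaction, thinning, a block for the replicate number, and fits without each library in turn.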

Additional observations from a re-analysis of the deposited data

How the results depend on the processing

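The 6 tested strands had a negative log2 fold change in all 15 alternatives each, but calls moved. These alternatives reuse the same 6 libraries, and miR-141-5p had passed the low-count filter through the oviducts. The share of all names with a negative value was not computed. Against 2 members called lower, there were 0 with library totals alone, 6 with TMM on 3p names, 3 with no low-count filter or a mean of at least 10 CPM, and 1 each with upper-quartile factors, DESeq2 and thinning to the smallest library, and 0 to 3 when 1 library was left out. miR-200c-3p kept its call in 9 of 15 alternatives and miR-141-5p in 6 of 15. Left-out libraries also added calls of miR-200a-3p (without tumor 1 or tumor 3), miR-200b-3p (without tumor 3) and miR-141-3p (without oviduct 3). Over all names, 58 of 227 called lower became 27 of 227 with library totals and 92 of 227 with TMM on 3p names. They were 50 of 227 with upper-quartile factors, 62 of 227 with DESeq2 and 42 of 189 with thinning. They were 76 of 919 with no low-count filter and 76 of 340 with a mean of at least 10 CPM. When 1 library was left out they were 42 to 73 of 241 to 262 names. The 61 names called higher became 98 with no low-count filter. The log2 ratio of the family's share became -1.72 with TMM on 3p names and lay between -0.57 and 0.08 when 1 library was left out.

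For the arm ratio, 0 family hairpins were called lower under any alternative. This carries no information for miR-429 (0 5p counts) and miR-200c (1 in the tumors, 2 in the oviducts), whose ratios followed the pseudocount and the depth. With a pseudocount of 5, miR-200c was called higher, the 1 such call, and over all hairpins 5 called higher became 2 with the edgeR interaction. When 1 library was left out, the change of miR-200b lay between -0.26 (without oviduct 2) and 0.60, and that of miR-200a between -0.22 (without oviduct 1) and 1.08. The cluster difference lay between -0.23 and 0.48 and the seed difference between -0.40 and 0.37 when 1 library was left out, and the seed difference was -0.083 with miR-429 left out. The causes were not tested.

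The labels link same-numbered samples by a number alone. Their deviations from the group means correlated at -0.05, 0.09 and -0.14 over 227 names. With 3 libraries a group and no reference values, this cannot show whether they shared handling. With the replicate block 1 member was called lower (miR-200c-3p), 53 names lower and 55 higher, and no family hairpin. Depth limits the 5p strands most, 4 of which were too rare to test.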
